A study of Rattus norvegicus with 45 samples.

Results

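The genes described here were 20 matrix and integrin family genes measured by RNA-seq in the ventral tegmental area (VTA), the midbrain region that holds dopamine neurons of the reward system. They were the readable rows of a supplementary table that pairs identifiers with symbols (1998 rows) whose symbol began with a collagen, laminin, integrin, ADAMTS, MMP, TIMP, fibulin, fibrillin, thrombospondin, serpin, emilin, LTBP, IGFBP or lysyl oxidase prefix and held a digit, which gave 23 genes, less Col1a1, Loxl1 and Mmp14. These 20 were found among 32883 genes in the deposited table, and all 20 passed the filter on low values that left 22570 genes. Itgb3bp, a nuclear protein named for binding an integrin tail, and Serpinb9, an intracellular inhibitor of granzyme B, carried the prefixes without being matrix or integrin genes.

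Male wild-type Sprague-Dawley rats self-administered saline or heroin for 10 d, received an intra-VTA virus on day 11 and were then kept in abstinence until its day 30. The virus was an empty vector that expressed GFP, a vector for the histone variant H3.3 WT, or a vector for H3.3Q5A, in which the fifth residue, a glutamine that can be dopaminylated, was replaced by alanine. The groups were saline empty (n = 7), saline H3.3 WT (n = 7), saline H3.3Q5A (n = 7), heroin empty (n = 8), heroin H3.3 WT (n = 7) and heroin H3.3Q5A (n = 8), 1 rat per library. All 6 groups thus carried a vector and surgery, and every punch was taken where GFP was seen. The series' own text calls the vector lentiviral and the study's methods call it an AAV2, and neither the promoter nor the rats' age is given in the sources used here. A further saline library had conflicting labels and was left out.

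The extracellular matrix is the scaffold of proteins around cells. In brain it is densest in the basement membranes of blood vessels and in the meninges, where endothelial cells, mural cells and fibroblasts secrete laminins, collagens and fibulins, while neurons and glia are wrapped in a softer, proteoglycan-rich matrix. Metalloproteases of the MMP and ADAMTS families cut it, serpins and other inhibitors limit proteases, latent TGF-beta binding proteins and IGF-binding proteins store growth factors in it, and integrins are the receptors by which cells hold it.

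Reads on genes ran from 24308953 to 71104049 per library (median 42574786), recovered from the deposited values. The shallowest member, Adamts12, had 90 to 652 reads per rat and the deepest, Ltbp3, had 1881 to 9124. Of the 7 dopamine neuron markers listed to check the tissue label, none was among the genes with a symbol here, so the label could not be checked with them. No 2 libraries of a group were copies of each other (lowest chi-square per gene 11.66 over 140 pairs, where sampling noise alone gives 1). The heroin H3.3Q5A rats were spread to both sides. Rats 26 and 25 were the top pair of their group for 9 of the 20 members, and rat 21 was the lowest for 10. Over members, the median differences from the group median were 0.29 and 0.18 for rats 26 and 25. For rats 21 and 24 they were -0.21 and -0.18. Rat 5 was the highest heroin empty rat for 11 members and rat 27 the lowest saline H3.3 WT rat for 13.

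The members had been chosen through a table whose order follows the data. Of its readable rows, 93.1% had an unadjusted p under 0.05 between the saline rats with H3.3 WT and with the empty vector, against 16.8% of all genes tested, while in the other comparisons the share among readable rows was 8.2% to 56.3%. The members were thus chosen by their differences between these saline groups, and comparisons with saline empty or saline H3.3 WT rats are described below without a test. Tests were kept for the 4 comparisons among the other groups. Their SE and p-values still use a spread estimated over all groups, saline empty and saline H3.3 WT rats included. They are thus not fully independent of how the members were chosen. Levels are the deposited variance-stabilized values on a log2-like scale, differences are log2 fold changes from limma with their SE, and adjusted p-values (Benjamini-Hochberg) run over all 22570 genes. The word called is used of members with a log2 fold change beyond 0.2 whose adjusted p was under 0.05.

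In heroin rats, 6 of the members were higher with H3.3Q5A than with either control vector. Against heroin empty rats, 6 of 20 members were called higher and none lower, where 2.41% of all genes were called higher and 0.793% lower. Against heroin H3.3 WT rats, which share no library with heroin empty rats but were set against the same heroin H3.3Q5A rats, 6 members were again called higher and none lower, where 2.02% of all genes were called higher and 0.687% lower. The share called among the readable rows, from which the members came, was not counted. The called members were the same in both: the fibulin Fbln1, the thrombospondin Thbs2, the laminin chain Lamb2, the collagen chaperone Serpinh1, the protease Adamts12 and the serpin Serpinb9. None of these calls was made without rats 25 and 26 of the heroin H3.3Q5A group: with both left out, a setting chosen after their values were seen, no member passed in either comparison (adjusted p 0.134 to 0.355 for the 6), and only 3 and 0 genes of all were called. Median reads on genes were 45039583 in heroin H3.3Q5A, 36011865 in heroin empty and 37049912 in heroin H3.3 WT rats. With log2 reads as a covariate, also chosen after seeing the data, Lamb2 was not called in either comparison (adjusted p 0.0519 and 0.0624) nor Serpinb9 against heroin empty (adjusted p 0.0504), and the other calls were kept. With rat 25 alone left out, Fbln1, Serpinh1 and Thbs2 were called in both comparisons. In punches, more cells of a type and more RNA per cell cannot be told apart.

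**Figure D1:**
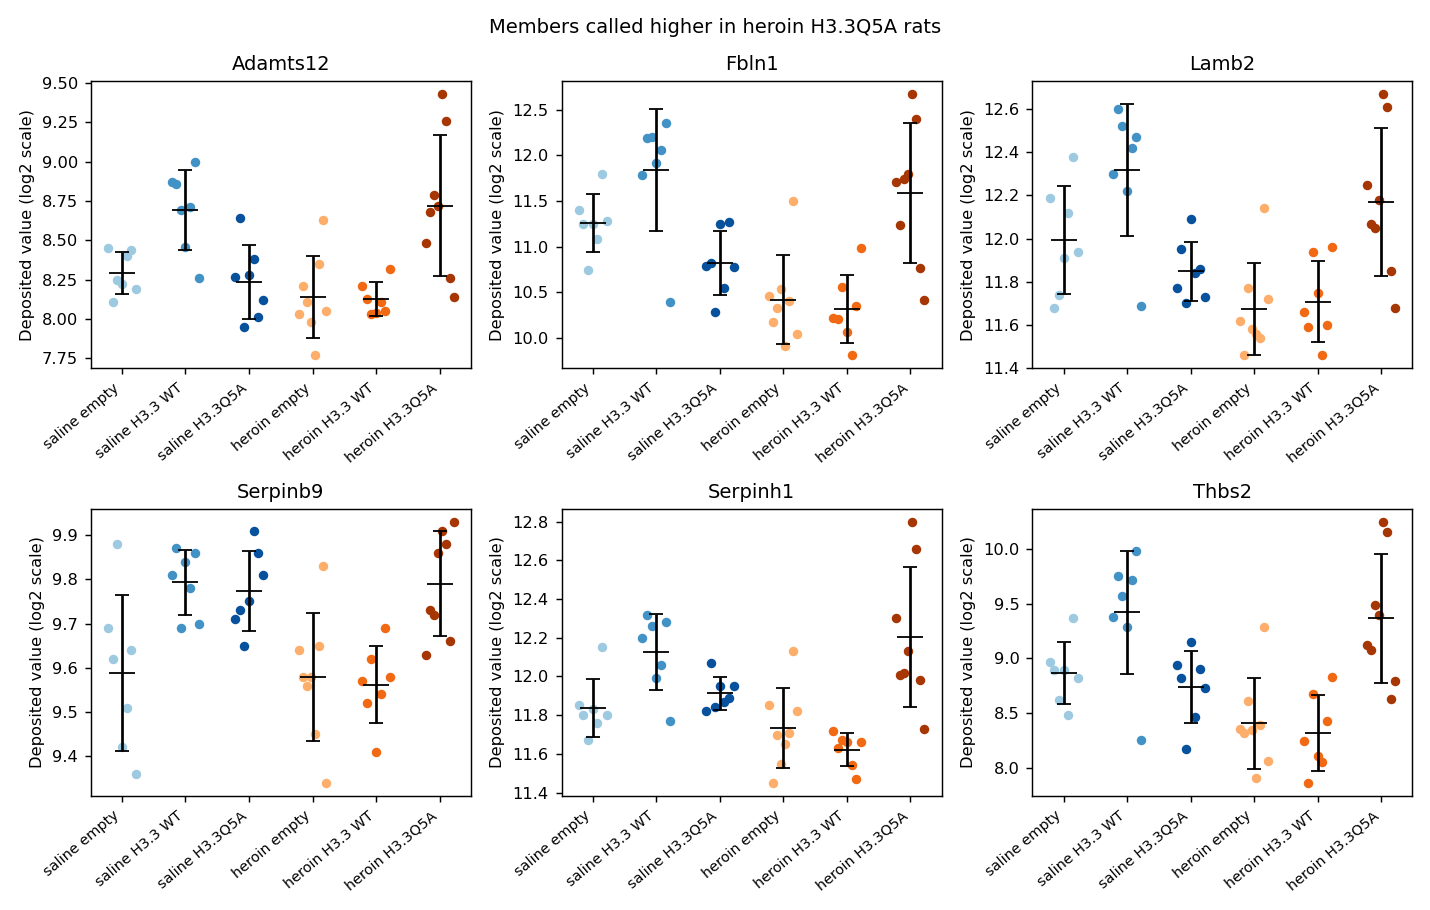
Deposited values on the log2 scale of the 6 called members in each of 44 rats, by group. Points are rats, the horizontal tick and bars are the group mean ± SD. The heroin H3.3Q5A rats were spread widely, and in every panel but Serpinb9 the top pair of points in that group was rats 26 and 25.

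Fbln1 encodes fibulin 1, a glycoprotein of basement membranes and elastic fibers (ENSRNOG00000014137). Its level in heroin H3.3Q5A rats had a lowest value of 10.41, a median of 11.73 and a highest of 12.67. In heroin empty rats the same 3 values were 9.91, 10.37 and 11.5. The highest heroin empty rat was rat 5, and the other heroin empty rats reached no more than 10.53, so 5 of 8 heroin H3.3Q5A rats lay above every heroin empty rat. In heroin H3.3 WT rats Fbln1 ran from 9.81 through a median of 10.22 to 10.98, and 6 of 8 heroin H3.3Q5A rats lay above all of them. The log2 fold change of 1.17 against heroin empty (adjusted p = 0.00862, SE 0.25) and that of 1.28 against heroin H3.3 WT (adjusted p = 0.00665, SE 0.26) were the largest among the members. Mean normalised reads were 2.5 and 2.78 times as high. Without rats 25 and 26 the log2 differences were 0.86 and 0.96.

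Thbs2 encodes thrombospondin 2, a secreted matricellular protein known for restraining blood vessel growth and for promoting synapse formation by astrocytes (ENSRNOG00000010529). It lay between 8.63 and 10.25 (median 9.26) in heroin H3.3Q5A rats. In heroin empty rats the range was 7.9 to 9.29 (median 8.35), and in heroin H3.3 WT rats 7.86 to 8.83 (median 8.24). Each of the 8 heroin H3.3Q5A rats was above the mean of either control group, and the ranges overlapped in both comparisons. Thbs2 rose by 0.96 relative to heroin empty (SE 0.21, adjusted p = 0.0102), and relative to heroin H3.3 WT it rose by 1.05 (SE 0.22, adjusted p = 0.0075).

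Lamb2 encodes the laminin beta-2 chain of vascular and synaptic basement membranes (ENSRNOG00000047768). Heroin H3.3Q5A rats ran from 11.68 to 12.67 with a median of 12.13. Heroin empty rats ran from 11.46 to 12.14 (median 11.6), where rat 5 was again the highest, and heroin H3.3 WT rats from 11.46 to 11.96 (median 11.66). In heroin H3.3Q5A rats Lamb2 was 0.50 higher than in heroin empty (SE 0.12, adjusted p = 0.0169) and 0.46 higher than in heroin H3.3 WT rats (SE 0.12, adjusted p = 0.032). Leaving out rat 26 or rat 25 alone ended both calls (0.0585 and 0.0699 as adjusted p for the first comparison, 0.0969 and 0.113 for the second).

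Serpinh1 encodes HSP47, the endoplasmic reticulum chaperone needed to fold procollagen (ENSRNOG00000016831). Its values in heroin H3.3Q5A rats were 11.73 at the lowest, 12.07 at the median and 12.8 at the highest. Heroin H3.3 WT rats were tightly grouped, from 11.47 to 11.72 with a median of 11.66, so that all 8 heroin H3.3Q5A rats lay above all 7 of them. No other member separated these groups, and 0.128% of all genes did so in that direction. Heroin empty rats ran from 11.45 to 12.13 (median 11.71) and overlapped. Serpinh1 rose by 0.58 against heroin H3.3 WT (SE 0.11, adjusted p = 0.00519), the lowest adjusted p of a member, and by 0.47 against heroin empty (SE 0.10, adjusted p = 0.0087).

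Adamts12 encodes a secreted metalloprotease that cleaves cartilage oligomeric matrix protein (ENSRNOG00000018865). With 184 to 586 normalised reads per heroin H3.3Q5A rat, it was among the members with the fewest reads. On the log2 scale these rats ran from 8.14 to 9.43 (median 8.7), heroin empty rats from 7.77 to 8.63 (median 8.08) and heroin H3.3 WT rats from 8.03 to 8.32 (median 8.11). Rats 21 and 24 of the heroin H3.3Q5A group lay inside both control ranges and the other 6 were above the heroin H3.3 WT range. The difference was 0.58 (SE 0.13, adjusted p = 0.0123) from the empty vector and 0.59 (SE 0.14, adjusted p = 0.0129) from H3.3 WT, and without rat 25 it no longer passed in either (adjusted p 0.0522 and 0.0531).

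Serpinb9, the granzyme B inhibitor (ENSRNOG00000033772), differed least and is made inside cells rather than laid down in matrix. Values were 9.63 to 9.93 (median 9.79) in heroin H3.3Q5A, 9.34 to 9.83 (median 9.58) in heroin empty and 9.41 to 9.69 (median 9.57) in heroin H3.3 WT rats. Unlike the other called members, its highest heroin H3.3Q5A rat was rat 21. The difference from heroin empty was 0.21 (SE 0.06, adjusted p = 0.0411), and that from heroin H3.3 WT was 0.23 (SE 0.06, adjusted p = 0.0367). After median centring of the libraries it was 0.13 and 0.17 and was not called (adjusted p 0.124 and 0.0841).

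The promoters of the called members show what letters lie before 3 genes that were called higher in the heroin H3.3Q5A group. RefSeq promoters on the GRCr8 build (250 bases before to 50 after the start) matched 14 of 20 members by symbol, and 3 of the 6 called, Serpinh1 at chr1:163062927-163063226 on the minus strand, Adamts12 at chr2:61759737-61760036 on the plus strand and Serpinb9 at chr17:31640767-31641066 on the minus strand. They are written 5′ to 3′ along the gene's strand, with matches to GGGCGG (GC box) and GAANNTTC (heat shock element), on either strand, in capitals.
Serpinh1: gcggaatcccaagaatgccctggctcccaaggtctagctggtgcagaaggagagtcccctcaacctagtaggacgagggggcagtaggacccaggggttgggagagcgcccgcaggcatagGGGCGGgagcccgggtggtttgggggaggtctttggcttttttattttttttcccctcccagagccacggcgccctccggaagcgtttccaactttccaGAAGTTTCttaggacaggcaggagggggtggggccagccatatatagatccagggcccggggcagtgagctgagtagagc
Adamts12: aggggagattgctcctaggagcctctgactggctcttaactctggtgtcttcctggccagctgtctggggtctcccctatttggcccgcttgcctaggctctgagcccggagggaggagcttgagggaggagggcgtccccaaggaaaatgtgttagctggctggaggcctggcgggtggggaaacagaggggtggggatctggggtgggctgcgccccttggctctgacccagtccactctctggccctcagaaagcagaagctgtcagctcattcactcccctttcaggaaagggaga
Serpinb9: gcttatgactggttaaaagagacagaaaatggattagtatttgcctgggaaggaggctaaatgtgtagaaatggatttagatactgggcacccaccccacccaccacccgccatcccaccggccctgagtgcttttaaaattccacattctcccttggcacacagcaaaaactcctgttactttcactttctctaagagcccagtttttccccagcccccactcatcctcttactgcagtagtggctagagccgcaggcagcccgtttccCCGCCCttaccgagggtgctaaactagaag
Serpinh1 held 1 GC box and 1 heat shock element, Serpinb9 held 1 GC box, and Adamts12 held none of the motifs searched. The letters CCAAT were searched too, as were those of an AP-1 site, TGANTCA, and those of a TATA box, read as TATAAA on either strand. None of these was in the 3 windows, where no 2 matches overlapped. A GC box was in 9 of the 14 member promoters and in 33.1% of 33469 rat promoters of that length, and the heat shock element was in 4 of 14 and in 8.6%. The CCAAT box was in 3 of 14 (37.5% of all promoters), and the AP-1 site (7.3%) and TATA box (14.2%) were in none of the 14. GC content was 60.7% in Serpinh1, 61.3% in Adamts12 and 50.7% in Serpinb9, where the median of all promoters was 51.7%. These matches are letters in a window and were not tested as binding sites.

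The other 14 members were not called against either heroin control. The median difference over all 20 was 0.33 against heroin empty, with 17 members higher and 3 lower, while the median over all genes was 0.007. Against heroin H3.3 WT the median was 0.26, with 14 higher and 6 lower, and over all genes 0.003. An unadjusted p under 0.05 was reached by 13 members against heroin empty (19.6% of all genes and 22.2% of the readable rows) and by 11 against heroin H3.3 WT (17.4% of all genes and 25.8% of the readable rows).

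**Figure D2:**
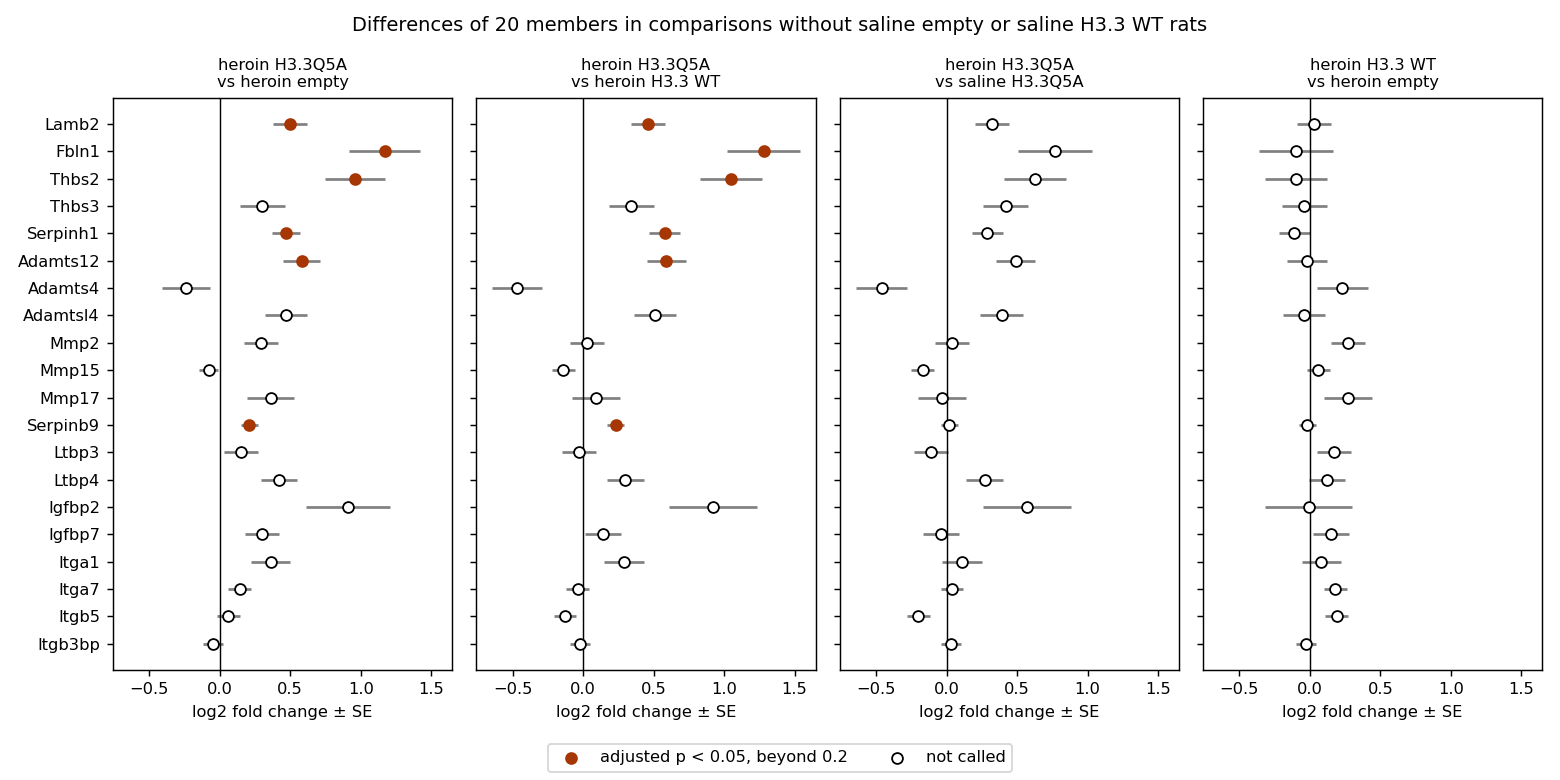
Log2 fold change ± SE of each of the 20 members in the 4 tested comparisons. Filled points passed an adjusted p of 0.05 with a fold change beyond 0.2, and open points did not. The 6 filled points in the first panel are the genes filled in the second, and the other panels hold none.

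Among matrix storage proteins, Igfbp2, which binds insulin-like growth factors, had a large difference with a wide spread. It ran from 10.47 to 13.07 in heroin H3.3Q5A rats and from 10.02 to 11.97 in heroin empty rats, and the difference was 0.91 (SE 0.30, adjusted p = 0.0722). Ltbp4, which tethers latent TGF-beta to elastic fibers, differed by 0.42 (SE 0.13, adjusted p = 0.0511) and Ltbp3, its relative, by 0.15 (adjusted p = 0.525). Igfbp7, a vascular IGF-binding protein, differed by 0.30 (adjusted p = 0.168). The corresponding differences against heroin H3.3 WT were 0.92, 0.30, -0.03 and 0.14, with adjusted p-values from 0.086 to 0.945.

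Proteases other than Adamts12 did not move as a block. Adamtsl4, which has ADAMTS repeats but no catalytic domain, differed from heroin empty by 0.47 (adjusted p = 0.0557) and from heroin H3.3 WT by 0.51 (adjusted p = 0.0522). The aggrecan-cleaving protease Adamts4 had the opposite sign, at -0.24 (adjusted p = 0.465) and -0.47 (adjusted p = 0.137). Mmp2, a gelatinase, and the membrane-anchored Mmp17 and Mmp15 differed by 0.29, 0.36 and -0.08 against heroin empty (adjusted p 0.139, 0.22 and 0.593), and by 0.03, 0.09 and -0.14 against heroin H3.3 WT. Thbs3, a relative of Thbs2, differed by 0.30 and 0.34 (adjusted p 0.282 and 0.268).

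No integrin receptor subunit was called. The collagen and laminin receptor subunit Itga1 differed by 0.36 against heroin empty (SE 0.14, adjusted p = 0.12), with 4 of 8 heroin H3.3Q5A rats above every heroin empty rat, the laminin receptor subunit Itga7 by 0.14 (adjusted p = 0.335) and the vitronectin receptor subunit Itgb5 by 0.06 (adjusted p = 0.729). Itgb5 is annotated as a processed transcript at its identifier. Itgb3bp differed by -0.05 (adjusted p = 0.727). Against heroin H3.3 WT these were 0.29, -0.04, -0.13 and -0.02, with adjusted p-values of 0.288 to 0.912.

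Rats 26 and 25 shaped many members at once. They were the top pair of the heroin H3.3Q5A group for 5 of the 6 called members and for Adamtsl4, Igfbp2, Itga1 and Ltbp4 among the others. For Adamts4 rat 25 was the lowest and rat 21 the highest, the reverse order. The heroin H3.3Q5A group had the largest SD of the 6 groups for 9 of the 20 members, Fbln1 (SD 0.76) and Igfbp2 (SD 0.88) among them. With limma run on the rats of a single comparison, where this spread was not pooled with that of the other groups, no member passed in either heroin comparison (adjusted p 0.0585 to 0.107 for the 6), and the count of all genes called was 101 and 0.

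**Figure D3:**
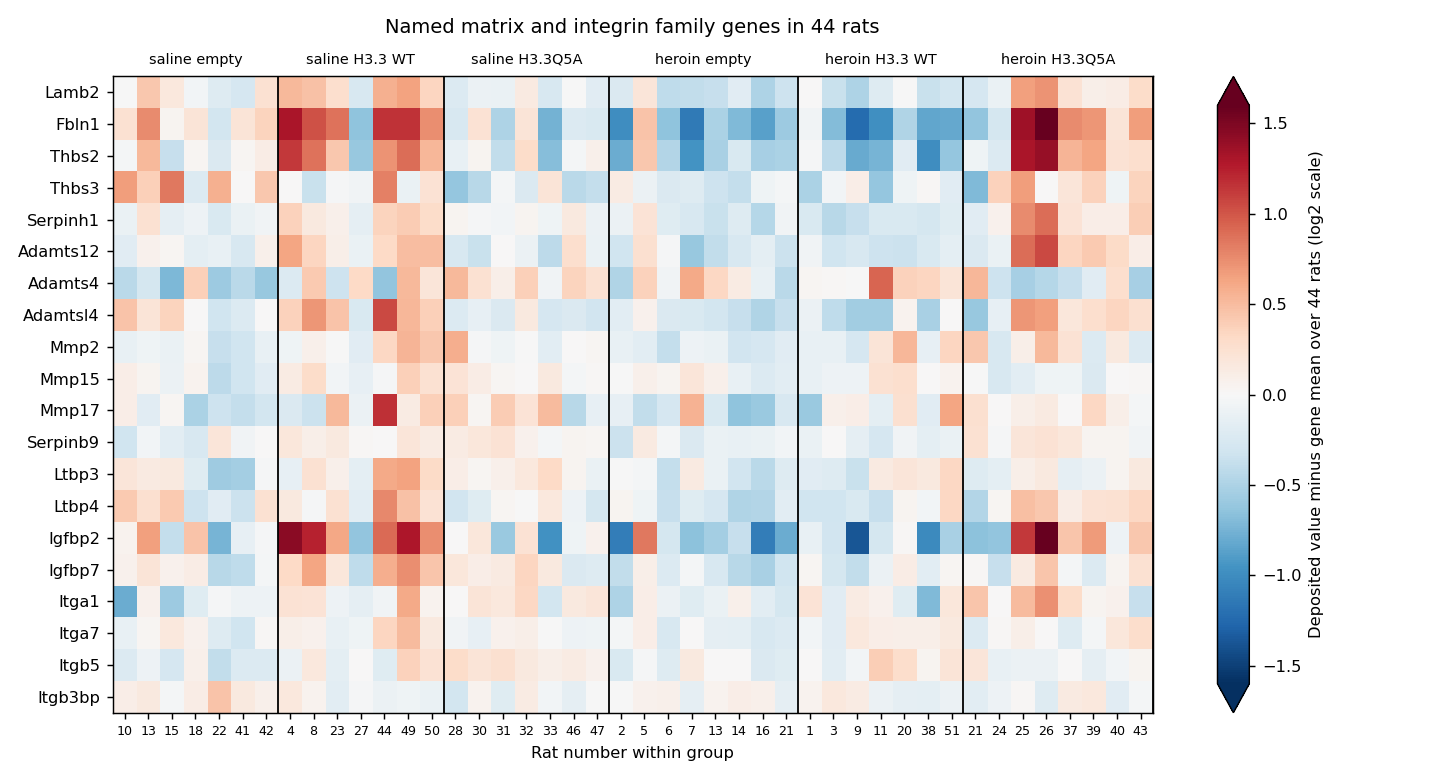
Deposited value of each member in each rat minus the member's mean over 44 rats (log2 scale, red above and blue below the mean), with rats in columns by group and members in rows by role. Columns 25 and 26 of heroin H3.3Q5A are red over Lamb2, Fbln1, Thbs2, Serpinh1 and Adamts12, and most saline H3.3 WT columns other than rat 27 are red too.

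Within the H3.3Q5A vector, heroin rats were compared with saline rats that received the same virus. None of the 20 members was called, where 0.505% of all genes were (114 genes), and 11 members had an unadjusted p under 0.05 (19.8% of all genes and 35.0% of the readable rows the members came from). Voom on the recovered reads also called no member. The median difference was 0.08, from -0.46 to 0.77. Fbln1 differed by 0.77 (SE 0.26, adjusted p = 0.0934), with saline H3.3Q5A rats at 10.28 to 11.27, and Thbs2 by 0.63 (SE 0.22, adjusted p = 0.102). Adamts12 came nearest the threshold at 0.49 (SE 0.14, adjusted p = 0.0572). Lamb2, Serpinh1 and Serpinb9 differed by 0.32, 0.29 and 0.02 (adjusted p 0.134, 0.109 and 0.923). Adamts4 differed by -0.46 (adjusted p = 0.143), and Itgb5 differed by -0.20 (adjusted p = 0.138). This count depended on heroin H3.3Q5A rat 21: without it 8 members were called, 7 higher (Adamts12, Adamtsl4, Fbln1, Lamb2, Serpinh1, Thbs2 and Thbs3) and Adamts4 lower. The share of all genes called without rat 21 is not given here.

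The H3.3 WT vector itself was compared with the empty vector in heroin rats. No member was called, and no gene of 22570 was (background 0.0%). 3 members had an unadjusted p under 0.05 (5.66% of all genes and 8.2% of the readable rows), Itga7 at 0.18, Itgb5 at 0.19 and Mmp2 at 0.27, and by voom the count of members called was also 0. The largest differences were those of Mmp17 and Mmp2, 0.27 each (SE 0.17 and 0.12, adjusted p = 0.863 for both). Mmp2 ran from 8.4 to 8.7 (median 8.61) in heroin empty rats and from 8.52 to 9.32 (median 8.67) in heroin H3.3 WT rats, where 3 rats made the upper end. Mmp17 ran from 8.75 to 9.95 (median 9.14) and from 8.8 to 10.03 (median 9.48). Differences of the 6 members called with H3.3Q5A lay between -0.11 and 0.03.

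The saline groups are given as a description, since the members were chosen by the rats with H3.3 WT and with the empty vector. Members were mostly higher in saline H3.3 WT than in saline empty rats, by a median of 0.33, with 18 higher and Thbs3 (-0.31) and Itgb3bp (-0.18) lower. Itgb3bp was also the member nearest the end of the readable rows, at row 1984 of 1998, and the rows beyond them were not used here. The group mean was highest in saline H3.3 WT for 13 of 20 members, in heroin H3.3Q5A for 3 and in saline empty for 2. Fbln1 averaged 11.84 ± 0.67 (SD, n = 7) in saline H3.3 WT, 11.26 ± 0.32 (n = 7) in saline empty and 10.82 ± 0.36 (n = 7) in saline H3.3Q5A. In heroin rats it averaged 10.42 ± 0.49 (n = 8) with the empty vector, 10.31 ± 0.37 (n = 7) with H3.3 WT and 11.59 ± 0.76 (n = 8) with H3.3Q5A. The range of saline empty rats, 10.74 to 11.79, overlapped the heroin H3.3Q5A range of 10.41 to 12.67, and saline H3.3 WT rat 27, at 10.39, lay below all others of its group.

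Heroin rats lay below saline rats for most members with either control vector. The members were chosen by these saline rats, so this is not read as an effect of heroin. For all genes tested, the median of heroin minus saline was -0.007 with the empty vector and 0.001 with H3.3 WT. The shares of all genes higher in heroin were 46.9% and 50.5%. With the empty vector the median difference of heroin minus saline was -0.12, with 4 members higher and 16 lower, and with H3.3 WT it was -0.25, with 3 higher and 17 lower. Fbln1 differed by -0.84 (SE 0.26) and -1.53 (SE 0.27), Thbs2 by -0.45 (SE 0.22) and -1.11 (SE 0.23), and Igfbp2 by -0.49 (SE 0.31) and -1.32 (SE 0.32). Adamts4 had the other sign in both, at 0.43 (SE 0.18) and 0.23 (SE 0.18). Heroin empty or heroin H3.3 WT held the lowest group mean for 7 members each. In saline rats, H3.3Q5A minus empty had a median of 0.05, from -0.66 (Thbs3) to 0.64 (Adamts4), and H3.3Q5A minus H3.3 WT a median of -0.19, from -1.02 (Fbln1) to 0.22 (Adamts4). These 5 comparisons reuse the same saline libraries, so their values are not independent of each other.

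Other matrix and signaling genes were read from lists of pathway members, of which only genes with a symbol here could be found. Over all genes, 2.41% were called higher against heroin empty and 2.02% against heroin H3.3 WT. These shares are not a matched background, since genes with a symbol come only from the readable rows. Of 7 fibrous matrix genes with a symbol (28 listed), 4 were called higher against heroin empty (Col1a1, Fn1, Nid2 and Mgp) and 4 against heroin H3.3 WT (Col1a1, Fn1, Mgp and Ecm1), with medians of 0.56 and 0.64. Col1a1, a chain of collagen I, differed by 1.18 (SE 0.35, adjusted p = 0.0481) and 1.55 (SE 0.37, adjusted p = 0.0159), and Fn1, fibronectin, by 0.56 (adjusted p = 0.0468) and 0.67 (adjusted p = 0.0243). Of 4 collagen processing genes (15 listed), Loxl1 and Mrc2 were called higher against heroin empty and Mrc2 against heroin H3.3 WT. Of 6 pericellular proteases (18 listed), Mmp14 and Htra3 were called higher against heroin empty and Htra3 against heroin H3.3 WT. Among 9 TGF-beta signaling genes (20 listed), none was called against heroin empty and Lrrc32 was called higher against heroin H3.3 WT, and among 15 integrin adhesion genes (21 listed) the counts were 0 and 1 (Flna, higher). No gene of these lists was called lower, and none was called in the other 2 comparisons. Without heroin H3.3Q5A rats 25 and 26, none was called in any of the 4. Those rats were picked by their high values, and that fit called hardly any gene of all against either heroin control. Its lack of calls is thus not particular to these lists. The list medians in that fit ran from 0.03 to 0.33 against heroin empty and from -0.02 to 0.44 against heroin H3.3 WT.

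Of the cell type markers, those of meningeal fibroblasts were higher in the same rats. All 6 meningeal fibroblast markers with a symbol (14 listed), Col1a1, Foxc1, Foxc2, Foxd1, Slc13a4 and Slc22a8, were called higher in heroin H3.3Q5A rats against both heroin controls (2.41% and 2.02% of all genes were), with medians of 0.93 and 0.94. Only genes in the readable rows have a symbol, and a saline difference ordered those rows. The shares over all genes are thus not a matched background, and the other markers listed were not seen. Without rats 25 and 26 none of the 6 was called in either comparison, and the medians were 0.67 and 0.67. Hardly any gene of all was called in that fit, so the lack of calls is not particular to these markers. Their summed normalised reads ran from 2073 to 16645 in heroin H3.3Q5A, 1675 to 5527 in heroin empty and 1296 to 3872 in heroin H3.3 WT rats. Rats 26 and 25 had 16645 and 11947, rat 21 had the least, and rat 5 was the highest of heroin empty. In saline rats the sums were 3234 to 7208 with the empty vector, 2400 to 11120 with H3.3 WT, where rat 27 was the lowest, and 1875 to 5499 with H3.3Q5A. By this sum and by Fbln1, the lowest and highest rats were the same in 3 groups. These were saline empty (rats 22 and 13), heroin H3.3 WT (rats 9 and 1) and heroin H3.3Q5A (rats 21 and 26). Only the lowest rat was the same in saline H3.3 WT (rat 27) and saline H3.3Q5A (rat 33), and only the highest in heroin empty (rat 5).

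The other markers are read against the same shares, with the same limit. Without rats 25 and 26 none was called, where hardly any gene of all was called against either heroin control. Of 12 mural markers (15 listed), none was called against heroin empty and Mylk and Des were called higher against heroin H3.3 WT, with medians of 0.39 and 0.59. Their sums ran from 10727 to 24047 in heroin H3.3Q5A, 10293 to 17999 in heroin empty and 8905 to 14959 in heroin H3.3 WT rats. Of 12 endothelial markers (16 listed), Cdh5 and Kdr were called higher against heroin empty and none against heroin H3.3 WT, with medians of 0.07 and -0.04, and sums of 8590 to 13757, 7457 to 11902 and 8373 to 12232. The 10 oligodendrocyte markers (12 listed) had the other sign, with medians of -0.41 and -0.55, and Opalin was called lower against heroin H3.3 WT (-0.69, SE 0.18, adjusted p = 0.0291). Their sums were 436388 to 1077051, 590012 to 1288500 and 760850 to 1528051, with the lowest heroin H3.3Q5A sum in rat 25 and the highest in rat 21. No marker with a symbol was at 0 in every rat. The part of these cell types in the differences of the 20 members was not tested.

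**Figure D4:**
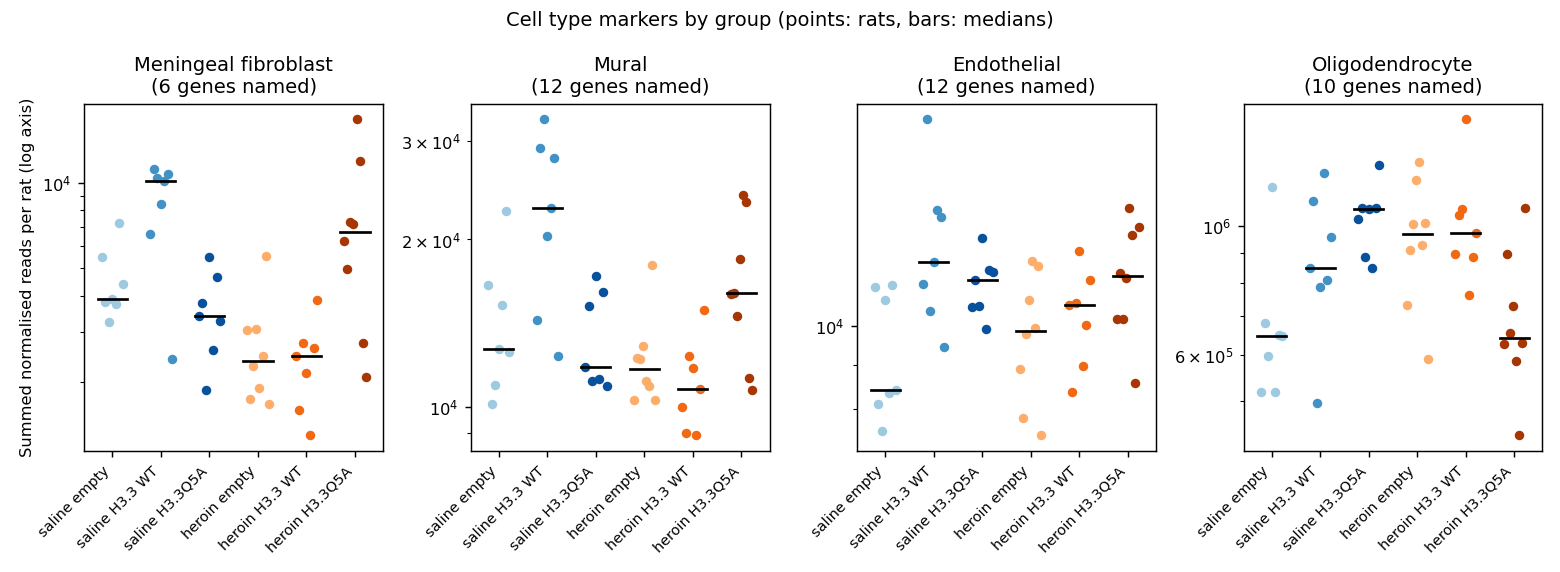
Summed normalised reads of cell type markers in each rat (log axis), by group, for the markers with a symbol. Points are rats and bars are group medians. The meningeal fibroblast sum had a median of 6682 in heroin H3.3Q5A rats, 2364 in heroin empty and 2470 in heroin H3.3 WT rats, and 10135 in saline H3.3 WT rats.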

How the data were processed

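RNA from GFP-guided VTA punches of single rats was polyA-selected and sequenced without strand information, so overlapping and antisense genes cannot be told apart. The authors aligned reads with HISAT2 2.1.0 to rn6, removed multiple-aligned reads, counted with featureCounts 2.0.1 and normalized with DESeq2 2.11.40.6, after joining 2 flow cells. The deposited values are log2-like, variance-stabilized from those counts. Inverting the transformation gave whole reads for 100.0% of values below 1000 reads (tolerance 0.05), and these reads, divided by size factors, are the normalised reads. Their number limits precision for shallow genes. The study's methods also name RUVr, whose factors are not in the deposited values.

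Groups follow the sample titles. Values of all 6 groups were fitted together with limma 3.58.1 (R 4.3.3, eBayes with trend), keeping 22570 genes that exceeded the table's lowest value in 7 libraries or more. The method was tested on simulated data. Given in full were members called in a tested comparison and the 2 with the largest fold change in each, and the rest by values and counts. The members and the lists were chosen with earlier results of these data known. Alternatives were other filters, scalings, residual factors, weights, thresholds, both readings of the library with conflicting labels and leaving out each rat. Chosen after seeing the data were voom, a read-depth covariate and the removal of pairs of rats with extreme values.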

Additional observations from a re-analysis of the deposited data

Results flagged for a closer look

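A single rat lay far from the others of its group (by Dixon's gap ratio) for 14 of 120 combinations of member and group, where chance gives about 6, and 9 rats made up the 14. Saline H3.3 WT rat 27 was low for Igfbp2 (10.49, others 11.74 to 12.56), Thbs2 (8.25, others 9.29 to 9.98), Lamb2 (11.69, others 12.22 to 12.6) and Fbln1 (10.39, others 11.78 to 12.35). Heroin empty rat 5 was high for Igfbp2 (11.97, others 10.02 to 10.84), Lamb2 (12.14, others 11.46 to 11.77) and Fbln1 (11.5, others 9.91 to 10.53). Serpinh1 was high in saline empty rat 13 (12.15, others 11.67 to 11.85). Adamts4 was high in saline empty rat 18 (12.21, others 11.11 to 11.55) and in heroin H3.3 WT rat 11 (12.76, others 11.82 to 12.19). Mmp17 was high in heroin empty rat 7 (9.95, others 8.75 to 9.27). Adamtsl4 was high in saline H3.3Q5A rat 32 (8.95, others 8.49 to 8.67), and Mmp2 in saline H3.3Q5A rat 28 (9.36, others 8.62 to 8.81). Itgb3bp was high in saline empty rat 22 (8.78, others 8.3 to 8.49). Heroin H3.3Q5A rats 25 and 26 lay too near each other to be singled out this way. In the library without a group, Mmp15 was 11.56, above the range of the saline empty rats (11.03 to 11.56) by less than the rounding of these values.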

How the results depend on the processing

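No called member changed direction under any alternative. With only the groups compared in the fit, all 12 calls were lost (adjusted p 0.0585 to 0.107), leaving 0 members in both heroin H3.3Q5A comparisons and 1 (Itgb5, lower) against saline H3.3Q5A. Residual factors went the other way: 1 factor gave 10 members against heroin empty, 11 against heroin H3.3 WT and 4 against saline H3.3Q5A, and 3 factors gave 15, 11 and 11. These factors were drawn from the spread within groups, so they lower that spread and leave the group differences unchanged. Higher counts with them are therefore not added support for the calls. Against saline H3.3Q5A the count of 0 became 7 with array weights, 2 at an adjusted p of 0.1, and 1 with median centring or with the library without a group read as saline H3.3Q5A. The share of all genes called under each alternative is not given here, so these counts do not set the members apart from other genes. Leaving out each of the 44 rats in turn gave 3 to 9 members against heroin empty (3 without heroin H3.3Q5A rat 25, 9 without saline H3.3 WT rat 27), 3 to 10 against heroin H3.3 WT (3 without heroin H3.3Q5A rat 25, 10 without rat 21), and 0 to 8 against saline H3.3Q5A (8 without heroin H3.3Q5A rat 21, 1 without saline H3.3Q5A rat 46 or heroin empty rat 7). Without both heroin H3.3Q5A rats 25 and 26 the counts were 0, 0 and 0, and without heroin empty rat 5 and saline H3.3 WT rat 27 they were 10, 8 and 1. Heroin H3.3 WT against heroin empty had 0 under all 16 alternatives and without each rat. Other than for the residual factors, whose effect follows from how they were made, the causes of these shifts were not tested.

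Serpinb9 was the least stable call, lost under 8 of 16 alternatives against heroin empty and 5 of 16 against heroin H3.3 WT. It was lost without heroin empty rat 2, 7, 13, 14 or 16 or heroin H3.3Q5A rat 21, 25, 26 or 37 in the first, and without heroin H3.3 WT rat 9, 11, 38 or 51 or heroin H3.3Q5A rat 25, 26 or 37 in the second. Lamb2 was lost under 3 and 4 of 16, and against heroin H3.3 WT also without heroin H3.3 WT rat 9, 11, 38 or 51 or heroin H3.3Q5A rat 37 or 43. Adamts12, tested in 15 alternatives because it fell below the median level, was lost under 2 in each comparison. Not every alternative could lose a call: dropping the fold-change threshold or raising that on adjusted p only loosens the rule. The residual factors lower the spread. The share of alternatives that lost a call is thus not a measure of how firm it is. No paired analysis was possible because each group holds different rats and the labels name no pairs. P-values measure the spread between rats only, and Adamts12 and Itga1, with medians of 199 and 223 reads, had the fewest reads behind their values.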

Other observations

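The saline library without a group, whose title and treatment label name different vectors, entered no comparison. Its Fbln1 value was 10.35, its Thbs2 value 8.38, its Lamb2 value 11.7 and its Serpinh1 value 11.66. Of the 20 members, 9 lay below and 11 within the range of saline H3.3 WT rats, while against saline H3.3Q5A rats 8 lay below, 11 within and 1 above.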
